A study of Gallus gallus with 8 samples.

Results

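The stage difference described here is that between retinal pigment epithelium (RPE) of embryonic day 5 (E5) and of embryonic day 4 (E4) chick eyes, both collected 6 h after surgical removal of the retina (post-retinectomy, PR) with fibroblast growth factor 2 (FGF2) added. Its members are the 4 ATAC-seq libraries of these 2 groups among the 8 of the series, 2 of E5 6hPR + FGF2 RPE and 2 of E4 6hPR + FGF2 RPE, compared over all 89823 accessible regions of the deposited table. Of these regions, 85166 lie on autosomes, 4454 on chromosome Z and 203 on chromosome W. They cover 74.6 Mb with a median width of 540 bp. The remaining 4 libraries are of RPE of intact eyes, 2 of E5 and 2 of E4. The E5 eyes were at Hamburger and Hamilton stage 26 and the E4 eyes at stage 24. Each library was made from 100000 nuclei of RPE pooled from 2 embryos, whose sex is not given, so the 2 libraries of a group are separate pools. No genetic change was made in any group. The sample labels call the eggs White Leghorn, whereas the methods name specific pathogen-free eggs. Both treated groups had the surgery and the growth factor, and no library of retinectomy without FGF2 was used, so the 2 parts of the treatment cannot be told apart.

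The RPE is a pigmented monolayer behind the retina. In the chick embryo at E4, RPE exposed to FGF2 after retina removal can reprogram and form a new neural retina, a capacity that is lost by E5. ATAC-seq reads where DNA is accessible, because the Tn5 transposase inserts sequencing adapters into DNA that is not wrapped in nucleosomes, and promoters and enhancers of active genes are the usual sites. The chicken karyotype combines a few large macrochromosomes with many small, gene-dense microchromosomes, and males carry ZZ and females ZW sex chromosomes.

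Values below are normalized counts, that is reads per region divided by the size factor of the library. The libraries of E5 6hPR + FGF2 RPE held 25233633 and 33925829 reads in these regions, against 64716670 and 59446882 in E4 6hPR + FGF2 RPE, so the E5 libraries were the shallower ones. A single read was worth 1.84 and 1.52 normalized counts in the E5 libraries and 0.69 and 0.763 in the E4 libraries. Over autosomal regions, log2 values of the 2 E5 libraries correlated with r = 0.961 and those of the 2 E4 libraries with r = 0.971, while pairs across stages ranged between 0.918 and 0.957 (n = 85166 regions that share libraries and depth). E5 replicate 1 and E4 replicate 2 were the closest pair across stages and E5 replicate 2 and E4 replicate 1 the farthest. The tissue label could be checked only in part: of the markers listed for RPE, neural retina and periocular mesenchyme, none of 8, 5 and 4 had a promoter placed by the annotation at hand. Among 5 blood and endothelium markers, the RUNX1 promoter had 149 and 161 normalized counts at E5 against 107 and 148 at E4, and the ERG promoter had 175 and 123 against 158 and 153. Neither passed the test. In such bulk samples, fewer cells with an open region and less opening per cell cannot be told apart.

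In treated RPE, 4171 of 89823 regions, 4.64%, were differentially accessible (DARs) between E5 and E4 (limma, Benjamini-Hochberg adjusted p of at most 0.05 over all regions, n = 2 libraries per stage). Of these, 2300 (2.56% of all regions) were higher at E5 and 1871 (2.08%) were lower. When libraries were scaled to equal totals in place of size factors, the split was 1609 higher and 2535 lower, and the median log2 fold change of all regions moved to −0.09 from 0.03. The DARs higher at E5 had a median log2 fold change of 1.11, with median values of 426 normalized counts at E5 and 190 at E4. The DARs lower at E5 had a median log2 fold change of −1.42, with medians of 91.1 at E5 and 246 at E4. Large decreases outnumbered large increases: at a log2 fold change beyond 2 in size there were 85 DARs higher and 295 lower at E5, and beyond 3 there were 8 and 25. The lower stage averaged under 20 normalized counts in 213 DARs lower at E5 and in 34 higher at E5. In the decreases these low values came from the shallower E5 libraries. In every DAR the 2 E5 libraries lay on one side of the 2 E4 libraries, which also held for 52.7% of all regions (28.8% with E5 above and 23.9% with E5 below). The gap between the nearest libraries of the 2 stages had a median of 0.81 on the log2 scale in DARs higher at E5 and 0.99 in those lower. The p-values measure the spread between these libraries, and the 4 untreated libraries entered the fit to estimate it.

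The libraries did not contribute equally to these differences. E5 replicate 2 was the more distant E5 library in 84.9% of the DARs higher at E5 and in 66.5% of those lower, and E4 replicate 1 was the more distant E4 library in 65.9% and 73.3%. Median log2 differences of the DARs higher at E5 ranged between 0.88 for E5 replicate 1 over E4 replicate 2 and 1.29 for E5 replicate 2 over E4 replicate 1. The number of DARs fell to 5 without E5 replicate 2 and to 23 without E4 replicate 1, against 6650 without E5 replicate 1 and 3179 without E4 replicate 2.

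The regions that were most accessible at E5 relative to E4 were on chromosome 1 close to its first annotated bases (GRCg6a coordinates as deposited). The region chr1:196930-199350, at the promoter of a gene without a symbol, had 1749 and 3063 normalized counts at E5, against 73.8 and 41.2 at E4. Its log2 fold change was 5.36 ± 0.30 (SE; limma adjusted p = 0.000415), and the E5 libraries were far above both E4 libraries. This promoter was open in intact eyes of both stages, with means of 5179 at E5 and 6292 at E4, so that E4 6hPR + FGF2 RPE was the group that stood apart. The adjoining intronic region chr1:199560-200610 showed the same order, with 584 and 1074 at E5 against 50.4 and 51.9 at E4 (log2 fold change 3.93 ± 0.26, limma adjusted p = 0.000944). At chr1:224800-225600 the values were 1157 and 4586 at E5 against 188 and 137 at E4 (3.83 ± 0.64, limma adjusted p = 0.0183), with E5 replicate 2 carrying the highest value.

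These regions belong to a run of 9 neighbouring DARs, chr1:195610-225600, all higher at E5 and with no other region between them. The C-type lectin-like gene CLC2DL3 is the named gene of this stretch. Its promoter region chr1:214900-218680 had 852 and 1048 normalized counts at E5 against 504 and 430 at E4 (log2 fold change 1.02 ± 0.18, limma adjusted p = 0.0197), which was the smallest change of the run. An intronic region of the run nearest to CLC2DL3, chr1:222120-222700, had 145 and 204 at E5 against 37.3 and 25.9 at E4. The weakest member, chr1:206550-206960, had 22.0 and 48.6 normalized counts at E5 and no read in either E4 library, which makes it at least 32.4-fold higher at E5 when 3 reads over both E4 libraries are taken as the floor. In 8 of the 9 regions both E4 6hPR + FGF2 libraries were below the other 6 libraries of the series, and in 7 of the 9 both E5 6hPR + FGF2 libraries were below the 4 intact ones. The same segment therefore ranked intact RPE above E5 treated RPE and E4 treated RPE lowest in most of its regions, as the plot of the run by library shows.

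**Figure D1:**
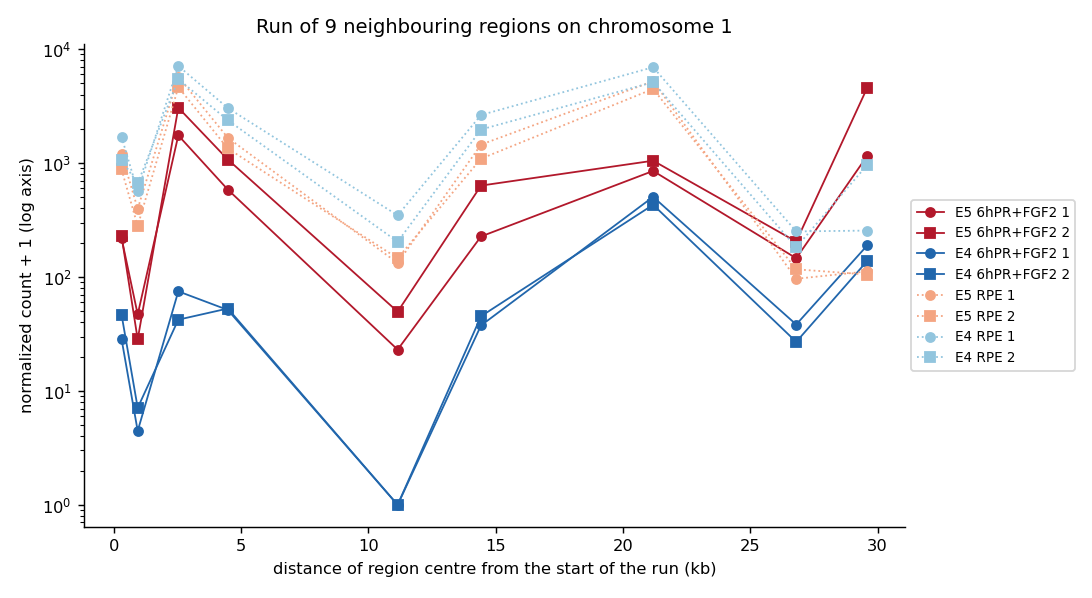
Normalized count plus 1 (log axis) of the 9 regions of the chromosome 1 run against the distance of each region's centre from the start of the run in kb, for the 8 libraries by group. The E4 6hPR + FGF2 libraries are below the other 6 in 8 of the 9 regions, and the region of no reads in that group is drawn at 1.

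Away from this run, and among autosomal DARs averaging at least 100 normalized counts at E5, the strongest increase was intronic on chromosome 3. This region, chr3:5617990-5619950, has a nearest gene without a symbol. It had 718 and 1103 normalized counts at E5 against 73.8 and 102 at E4, a log2 fold change of 3.35 ± 0.23 (limma adjusted p = 0.000944). Intact RPE had the same direction there, with means of 2164 at E5 and 289 at E4. An intergenic region, chr1:195298820-195299170, had the start site of WNT11, which encodes a secreted Wnt ligand, as its nearest one. It had 143 and 269 at E5 against 30.4 and 21.4 at E4 (2.90 ± 0.39, limma adjusted p = 0.0127). Intact RPE had means of 174 at E5 and 46.9 at E4 at the WNT11 region. The gene CLK3, whose kinase phosphorylates splicing factors, carried the largest increase outside the run among DARs with at least 1000 normalized counts at E5. The intronic region nearest to it, chr10:2935150-2936130, had 1317 and 1033 at E5 against 328 and 276 at E4 (1.95 ± 0.20, limma adjusted p = 0.00906).

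Weaker regions gave the remaining large increases. An intronic region on chromosome 11, chr11:19786610-19786970, had 165 and 217 normalized counts at E5 against 25.5 and 34.3 at E4. A region nearest to EDEM2, a gene of endoplasmic reticulum-associated protein degradation, chr20:2485190-2485480, had 152 and 310 at E5 against 36.6 and 38.9 at E4. An exonic region with INPP5F, a phosphoinositide phosphatase gene, as the nearest one, chr6:31289310-31289720, had 90.0 and 117 at E5 against 13.1 and 23.7 at E4. COX14, required for assembly of cytochrome c oxidase, was nearest to chr33:5771480-5771790, which had 123 and 161 at E5 against 35.2 and 36.6 at E4. Log2 fold changes of these 4 regions were 2.64, 2.50, 2.47 and 1.94, and in each the lower E5 library exceeded the higher E4 library at least 2-fold. The widest of the named increases, chr9:3993920-3998150, had 366 and 181 at E5 against 39.3 and 90.1 at E4 (2.09 ± 0.50, limma adjusted p = 0.0455) and was among the least stable DARs, being called in 9 of 21 alternatives.

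Among autosomal DARs averaging at least 100 normalized counts in the higher stage, the largest decreases were in weak regions without a gene name. The annotation at hand covers few regions outside 2 stretches of chromosome 1, so the missing names are not a result. Over all DARs, weaker ones included, the log2 fold change reached −4.67. At chr1:98838950-98839560 the E5 libraries had 31.2 and 4.56 normalized counts, against 281 and 65.6 in the E4 libraries (log2 fold change −3.36 ± 0.79, limma adjusted p = 0.0425), and replicates of both stages were wide apart. By contrast chr1:41853790-41854090 had 36.7 and 30.4 at E5 against 270 and 266 at E4 (−2.97 ± 0.28, limma adjusted p = 0.00633), with replicates close together. Intact RPE had means of 36.7 at E5 and 170 at E4 at this second region. All of the 8 largest decreases at this threshold had fewer than 100 normalized counts in both E5 libraries. For 7 of these 8, the intact E5 mean was below 100 as well, and chr8:21116360-21117450 was the exception. That region had 14.7 and 39.5 at E5 against 141 and 269 at E4 after treatment, and means of 908 at E5 and 2103 at E4 in intact RPE.

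Decreases at higher signal were smaller. On chromosome 3, chr3:14937240-14938380 had 356 and 305 normalized counts at E5 against 1163 and 1149 at E4, a log2 fold change of −1.81 ± 0.16 (limma adjusted p = 0.00494). Its replicates lay close together at both stages. Among autosomal DARs at least 2000 bp wide and averaging at least 100 normalized counts at E4, chr11:17182220-17184430 fell most. It had 182 and 108 at E5 against 674 and 382 at E4 (−1.85 ± 0.35, limma adjusted p = 0.0238). Another wide region, chr21:4465330-4467480, had 320 and 188 at E5 against 816 and 794 at E4.

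**Figure D2:**
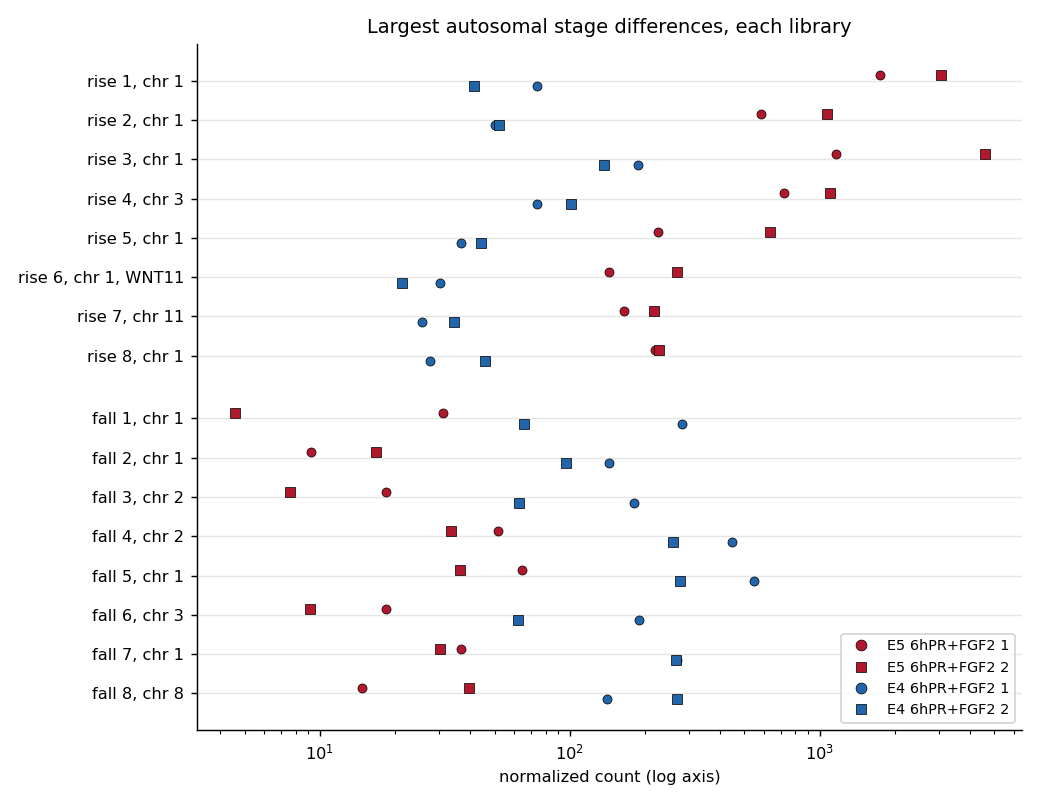
Normalized counts (log axis) of each of the 4 treated libraries at the 8 largest increases (rise) and the 8 largest decreases (fall) among autosomal DARs with at least 100 normalized counts in the higher stage, E5 6hPR + FGF2 in red and E4 6hPR + FGF2 in blue. The libraries of the 2 stages do not overlap in any of these regions, which was a condition of their choice, and E5 values of all 8 decreases are below 100.

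Regions with high signal were mostly higher at E5 and regions with low signal mostly lower in this normalization. Among 85166 autosomal regions 4129 were DARs (4.85%, 2.68% higher and 2.17% lower at E5), and each level bin is the mean of the 4 treated libraries. Of 11122 regions below 50 normalized counts, 2.01% were DARs and 16.1% of those were higher at E5. Of 18312 regions with 200 to below 500, 6.94% were DARs and 58.7% of those were higher. Of 5447 regions with 2000 or more, 3.29% were DARs and 87.7% of those were higher. The share of DARs was thus greatest at intermediate signal, while the share that was higher at E5 climbed with every bin. Medians of all regions followed the same course, with a log2 fold change of −0.31 below 50 and 0.17 at 2000 or more.

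This course was not the same in each library and depended on the scaling. At 2000 normalized counts or more, E5 replicate 2 exceeded the mean of the E4 libraries by a median of 0.29 on the log2 scale and E5 replicate 1 by 0.04. The E4 libraries lay 0.18 and 0.15 below the mean of the E5 libraries. Below 50, E5 replicates 1 and 2 were lower by medians of 0.16 and 0.43, so that all 4 libraries showed the sign but in unequal amounts. After quantile normalization, 44.6% of the DARs at 2000 or more and 62.0% of those below 50 were higher at E5, and after cyclic loess normalization 53.8% and 49.1% were. Both of these scalings set the values of strong and weak regions to a common distribution or centre, and under them the climb with signal was gone.

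**Figure D3:**
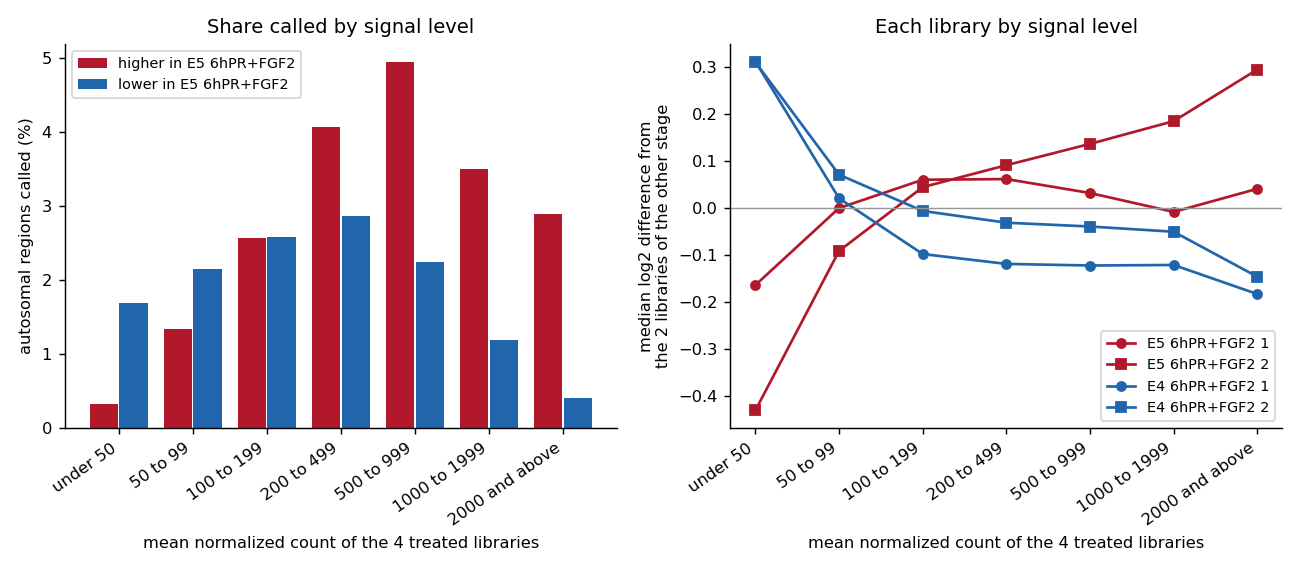
Left, percentage of autosomal regions in each bin of mean normalized count that were DARs higher (red) or lower (blue) in E5 6hPR + FGF2 RPE. Right, median log2 difference of each treated library from the mean of the 2 libraries of the other stage in the same bins: E5 replicate 2 spans the widest range, from −0.43 below 50 to 0.29 at 2000 or more.

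Region width gave a smaller contrast. DARs made up 2.08% of 17800 autosomal regions under 300 bp, 6.64% of 23863 regions of 500 to below 1000 bp and 3.47% of 518 regions of 5000 bp or wider. The widest class held 18 DARs, 6 higher and 12 lower at E5, whereas regions of 1000 to below 2000 bp held 609 higher and 382 lower. These directions depended on the scaling. With equal totals, regions of 1000 to below 2000 bp held 467 DARs higher and 578 lower at E5. After quantile normalization, 71.7% of DARs under 300 bp and 10.6% of those of 5000 bp or wider were higher at E5. Width and signal go together, and within 200 to below 500 normalized counts the order turned round. There, 86.8% of the 144 DARs of 300 to below 500 bp were higher at E5, against 43.7% of the 359 DARs of 1000 to below 2000 bp. Ranked by normalized count per kb, the lowest quintile of autosomal regions had 24.9% of its DARs higher at E5 and the highest quintile 86.4%.

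Regions with a close neighbour were DARs somewhat less often than those farther apart. Of 14056 autosomal regions with a neighbour within 500 bp, 3.74% were DARs, with 238 higher and 288 lower at E5. Regions 2000 to below 5000 bp from their neighbour were DARs in 5.47% of 21888 cases, with 708 higher and 490 lower, a split that was 506 higher and 641 lower with equal totals. The 326 regions at least 50000 bp from any other held 18 DARs, 7 higher and 11 lower. Width varies with this distance. Among regions of 300 to below 500 bp, 2.47% were DARs with a neighbour within 500 bp and 5.06% at 5000 to below 10000 bp. Among regions of 1000 to below 2000 bp these shares were 5.07% and 5.41%. Adjacent DARs mostly shared their direction, whereas adjacent regions in general did so little more often than not. Of 359 pairs of adjacent DARs, 311 changed in the same direction and 48 in opposite directions, with 33 of 33 pairs under 500 bp apart and 66 of 81 pairs 10000 to below 50000 bp apart in the same direction. Over all 85134 pairs of adjacent autosomal regions, the log2 fold changes had the same sign in 55.8%, which was 57.3% under 500 bp and 53.1% at 50000 bp or more. Log2 fold changes of adjacent regions correlated with r = 0.25 under 500 bp and r = 0.10 at 50000 bp or more, while differences between replicates of one stage, which hold no stage effect, correlated with r = 0.21 at E5 and 0.34 at E4 under 500 bp. Most DARs stood alone: 2058 of 2280 higher at E5 and 1619 of 1849 lower had no DAR of the same direction as a direct neighbour within 10000 bp. With DARs at 4.85% of autosomal regions, such a neighbour is uncommon in any case. The next region along the chromosome was a DAR after 8.7% of DARs and after 4.65% of other regions. Under 500 bp apart these shares were 11.5% and 3.51%.

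Only 6 runs of 3 or more DARs higher at E5 and 10 runs lower were found on autosomes. After the run on chromosome 1, the next was chr7:30007410-30021730, whose last member, the intronic region chr7:30021020-30021730 nearest to NCKAP5, had 419 and 837 normalized counts at E5 against 111 and 125 at E4 (log2 fold change 2.32 ± 0.29, limma adjusted p = 0.0116). A run on chromosome 1 at chr1:51007850-51018870 combined 3 strong regions. The first of them had 2717 and 4062 at E5 against 1258 and 1339 at E4, and its intact means were 4158 at E5 and 1884 at E4. Runs of decreases were weaker. At chr3:65443700-65453550 the middle region had 204 and 115 at E5 against 431 and 433 at E4, and at chr10:9895640-9905250 the outer regions had 14.7 and 22.8 against 129 and 58.0, and 40.4 and 38.0 against 207 and 118.

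Chromosome classes differed in the direction of their DARs. Microchromosomes (11 to 28 without 16) held 742 DARs higher and 315 lower at E5 among 23948 regions, which is 4.41% in all. Intermediate chromosomes (6 to 10) held 384 higher and 365 lower among 14818 regions. Macrochromosomes (1 to 5) held 1128 higher and 1160 lower among 44985 regions, which is 5.09%. DARs higher at E5 thus made up 70.2% of those on microchromosomes, 51.3% on intermediate chromosomes and 49.3% on macrochromosomes. On 15 of the 17 microchromosomes more DARs were higher than lower, the exceptions being 12 and 22, and the extremes were chromosome 26 with 30 higher and 4 lower and chromosome 22 with 12 higher and 15 lower. Chromosome 2 stood at the other end among the macrochromosomes, with 224 higher and 325 lower. Of 1415 regions on the dot chromosomes (16 and 30 to 33), 35 were DARs (2.47%), 26 higher and 9 lower at E5.

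Micro- and macrochromosomes were also compared within bins of signal level. In 6 of 7 level bins the share higher at E5 was greater on microchromosomes, for example 68.9% against 54.3% at 200 to below 500 normalized counts, and the exception was 2000 or more with 85.7% against 91.8%. In all 21 fits with at least 100 DARs in both classes, the main one included, the share was greater on microchromosomes, by 8.43 to 23.4 percentage points. With equal totals, 51.5% of DARs on microchromosomes and 34.8% on macrochromosomes were higher at E5. Median shifts were small: over microchromosomal regions the E5 libraries lay 0.08 and 0.07 above the mean of the E4 libraries on the log2 scale, and over macrochromosomal regions −0.02 and 0.06. With 2 libraries per stage an exact permutation test of such a median over libraries cannot go below p = 0.333 (two-sided).

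**Figure D4:**
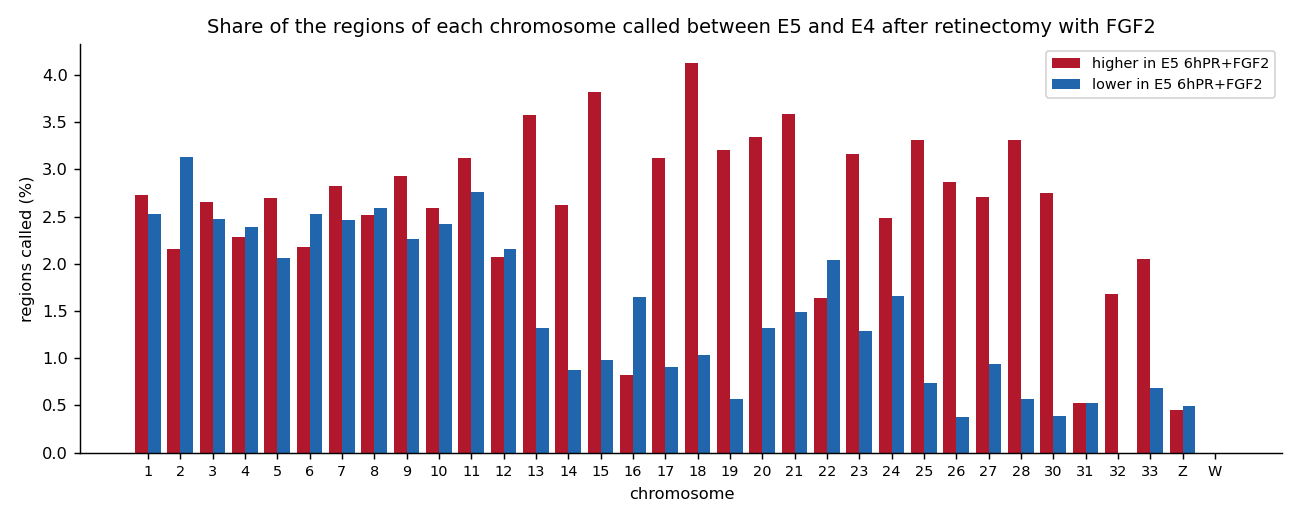
Percentage of the regions of each chromosome that were DARs higher (red, left bar) or lower (blue, right bar) in E5 6hPR + FGF2 RPE relative to E4 6hPR + FGF2 RPE. Red bars exceed blue ones on 15 of the 17 microchromosomes, chromosome 2 shows the reverse, and Z and W stay under 1% in total.

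Z and W were kept apart because the sex of the pooled embryos is not given. W reads were near 0 in E5 replicate 1 and E4 replicate 1, at 0.000527% and 0.000765% of the normalized counts, and present in E5 replicate 2 and E4 replicate 2, at 0.187% and 0.109%. The share of Z ran the other way, at 4.72% and 3.34% in the E5 libraries against 4.89% and 3.95% in the E4 libraries. Each treated stage therefore had a library with W signal and one nearly without. Of 203 regions on W, 0 were DARs by limma (2 at an unadjusted p of at most 0.05), 0 by edgeR and 1 by DESeq2. By limma, 42 of 4454 regions on Z were DARs (0.943%), with 20 higher and 22 lower at E5. Across Z, E5 replicate 1 exceeded E5 replicate 2 by a median of 0.46 on the log2 scale, against a stage difference of −0.12, so the replicates differed by more than the stages. The median stage difference on Z was −0.35 without E5 replicate 1 and 0.13 without E5 replicate 2. Among Z DARs, the intergenic region chrZ:34148970-34149370 had 171 and 125 normalized counts at E5 against 18.6 and 9.92 at E4 (log2 fold change 3.33 ± 0.57, limma adjusted p = 0.0189). Among Z DARs averaging at least 100 normalized counts in the higher stage, the largest decrease was at chrZ:26910070-26910350. It had 42.3 and 4.56 at E5 against 186 and 187 at E4 (−3.59 ± 0.82, limma adjusted p = 0.0393), with the E5 replicates wide apart. The intronic region chrZ:13830-14290 had 127 and 76.0 at E5 against 22.8 and 22.1 at E4. The decrease at chrZ:48093300-48093660 had 91.9 and 108 at E5 against 430 and 311 at E4, and was lower at E5 in intact RPE too, with means of 43.8 and 237. That the libraries of the 2 stages did not overlap in these 4 regions was a condition of their choice. It held for 37.2% of all Z regions.

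The nearest annotated start site was available for 3033 regions in 2 stretches of chromosome 1 (chr1:20010-27315070 and a second one between 100000000 and 119137540). Elsewhere it was available for 216 regions, to which those of WNT11, CLK3, EDEM2, INPP5F, COX14 and NCKAP5 belong. These 216 and the 1107 regions counted in the second stretch overlap peak summits listed in the paper's supplement. The paper describes a library of summits that hold the DNA motif of the transcription factor OTX2 and changed significantly in accessibility. Whether a region has a name there may thus depend on these same data. No decrease printed from outside the stretches has a name, which is therefore not a result. The counts by gene list below cover these stretches only. A nearest gene is a label of position and not a measured target. Of the 3033 regions of the stretches, 142 were DARs (4.68%), 60 higher (1.98%) and 82 lower (2.7%) at E5. The 2 stretches differed, with 117 DARs among 1926 regions (6.07%) in the first and 25 among 1107 (2.26%) in the second. In the first stretch, DARs made up 57 of 703 intergenic regions (8.11%, 17 higher and 40 lower), 55 of 973 intronic ones (5.65%, 26 and 29) and 3 of 139 at promoters (2.16%).

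Regions near semaphorin genes gave the most DARs of any of the 9 gene lists examined. Class 3 semaphorins are secreted cues that steer growing axons and migrating cells, and plexins are signalling receptors of the wider semaphorin family. Of 106 regions nearest to 6 semaphorin and plexin genes, 15 were DARs (14.2%, against 6.07% of the first stretch, in which all 6 genes lie), 3 higher and 12 lower at E5, and the median log2 fold change of all 106 was −0.05, against 0.01 over both stretches. The adjacent genes SEMA3D, SEMA3A and SEMA3E accounted for 12 of these 15, in 75 consecutive regions between 8813500 and 9760340. Adjacent regions are not independent of each other. The promoter regions of SEMA3A, SEMA3C, SEMA3D and SEMA3E were not DARs. Their log2 fold changes were 0.17, 0.22, 1.10 and 0.02 (limma adjusted p = 0.62, 0.47, 0.13 and 0.97).

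SEMA3D had the largest decrease of this list. Its intergenic region chr1:9050110-9050320 had 11.02 and 10.64 normalized counts at E5 against 65.6 and 97.7 at E4 (log2 fold change −2.78 ± 0.44, limma adjusted p = 0.0168). The E5 values are of few reads. Intact RPE had means of 13.0 at E5 and 51.8 at E4 there, so both conditions had the lower value at E5. A SEMA3D intronic region, chr1:8911200-8912190, had 69.8 and 51.7 at E5 against 331 and 189 at E4 (−2.04 ± 0.31, limma adjusted p = 0.0153). The one SEMA3D DAR that was higher at E5, chr1:8813500-8814070, had 443 and 570 against 264 and 304 at E4 (0.82 ± 0.20, limma adjusted p = 0.0437). SEMA3D thus had changes in both directions within one locus, with 3 of its 4 DARs lower.

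SEMA3E, whose product signals through plexin D1, had 3 DARs among 19 regions, all lower at E5. The intronic region chr1:9688850-9689780 had 114 and 103 normalized counts at E5 against 420 and 411 at E4 (log2 fold change −1.93 ± 0.22, limma adjusted p = 0.0107). The replicates of both stages lay close together there. The intergenic region chr1:9527950-9528460 had 56.9 and 38.0 at E5 against 157 and 272 at E4 (−2.13 ± 0.41, limma adjusted p = 0.0246), while intact RPE had low means of 27.6 at E5 and 33.3 at E4. A similar order was seen at the SEMA3A intronic region chr1:9434710-9435110, with 47.8 and 59.3 at E5 against 164 and 231 at E4 after treatment, and means of 35.7 and 49.2 in intact RPE. E4 6hPR + FGF2 RPE was the highest of the 4 groups at both. The difference of the stage effect between treated and intact RPE did not pass the test at either one (limma adjusted p = 0.44 for SEMA3E and 0.45 for SEMA3A).

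SEMA3A had 5 DARs among 32 regions, 4 of them lower at E5. The increase, at the intronic region chr1:9430080-9430580, had 367 and 371 normalized counts at E5 against 181 and 205 at E4 (log2 fold change 0.94 ± 0.18, limma adjusted p = 0.0246) and lies about 4 kb from the decrease named above. SEMA3C had a single DAR among 8 regions, chr1:11249700-11249970, with 18.4 and 27.4 at E5 against 73.8 and 86.2 at E4. PLXNA4, which encodes a receptor subunit for SEMA3A, had one DAR in each direction among 21 regions. The first, chr1:2907860-2908420, had 239 and 366 at E5 against 145 and 139 at E4, and the second, chr1:3050490-3050900, had 99.2 and 68.4 against 331 and 168. Of the 2 regions of PLXNB2, 0 were DARs by limma, edgeR or DESeq2, and 1 had an unadjusted limma p of at most 0.05.

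Transcription factor genes were the next list, with 8 DARs among 140 regions, 2 higher and 6 lower at E5. Their share of 5.71% was near the 4.68% of both stretches. GATA3, which encodes a zinc finger transcription factor, accounted for 5 of them among 19 regions. Its 4 decreases lie close together, between 4951960 and 4966810, and such regions are not independent of each other. The GATA3 promoter region was not a DAR (log2 fold change 0.07, limma adjusted p = 0.76). The intergenic GATA3 region chr1:4954040-4954410 had 34.9 and 30.4 normalized counts at E5 against 161 and 94.6 at E4 (log2 fold change −1.89 ± 0.35, limma adjusted p = 0.0225). Stronger GATA3 regions changed less, as at chr1:4951960-4952960, with 547 and 621 at E5 against 1087 and 926 at E4 (−0.78 ± 0.18, limma adjusted p = 0.0398). An intronic region with the GATA3 start as its nearest, chr1:4926720-4927160, was higher at E5, with 193 and 243 against 92.5 and 100.7 at E4 (1.16 ± 0.26, limma adjusted p = 0.0367). A region at a transcript end and intergenic regions lie between it and the GATA3 promoter. The intron therefore belongs to a transcript other than the one that starts at that promoter. The other DARs of the list were nearest to BCOR, a corepressor gene, with 1898 and 1921 at E5 against 1247 and 1311 at E4, to PKNOX1, a homeodomain factor gene, with 58.8 and 33.4 against 123 and 106, and to DMTF1, with 68.0 and 77.5 against 163 and 201.

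**Figure D5:**
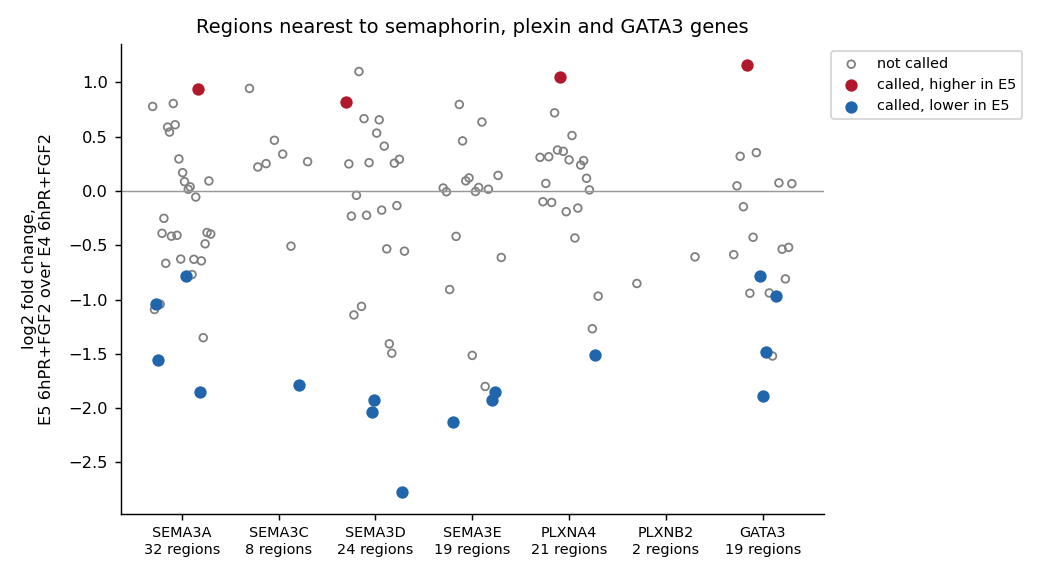
Log2 fold change, E5 6hPR + FGF2 over E4 6hPR + FGF2, of every region nearest to 4 semaphorin genes, 2 plexin genes and GATA3, with DARs filled (red higher, blue lower at E5) and the other regions open. Of the 20 DARs, 16 are lower at E5, and most regions of each gene lie between −1 and 1 and are not DARs.

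The remaining lists held few DARs. Of 121 regions of growth factor and MAP kinase signalling genes, 4 were DARs (3.31%). They included 2 intronic regions nearest to HGF, which encodes the ligand of the MET receptor. The first, chr1:10800120-10801710, had 882 and 779 normalized counts at E5 against 1527 and 1458 at E4 (log2 fold change −0.85 ± 0.15, limma adjusted p = 0.0194). The second HGF region, chr1:10828410-10829910, had 2568 and 2366 at E5 against 3540 and 3672 at E4, and was lower at E5 in intact RPE too. A region nearest to the tyrosine phosphatase gene PTPN12 was lower at E5, with 34.9 and 36.5 against 96.6 and 103, and one nearest to TIAM1, an activator of Rac, was higher, with 928 and 1284 against 625 and 648.

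Among 21 regions of RPE and pigment cell genes, 1 was a DAR. It is an intronic region nearest to CD36, chr1:11369450-11370170, which encodes a scavenger receptor of the RPE, and it had 294 and 404 normalized counts at E5 against 193 and 169 at E4 (log2 fold change 0.93 ± 0.22, limma adjusted p = 0.0447). Of 10 regions of TFEC, a MITF family transcription factor gene, 0 were DARs by limma (2 at an unadjusted p of at most 0.05), 0 by edgeR and 1 by DESeq2. Among 47 eye and retina regions the DAR was intronic and nearest to NYX, a proteoglycan gene of retinal bipolar cells, with 99.2 and 103 at E5 against 52.4 and 49.6 at E4. Matrix and adhesion genes had 1 DAR among 98 regions, near RELN (27.6 and 30.4 at E5 against 63.5 and 80.9 at E4), and cell cycle genes had 1 among 36, near PIM3 (29.4 and 48.6 against 157 and 86.2). Channel and transporter genes had 1 among 58, near SLC35B4 (165 and 122 against 55.2 and 37.4). The median log2 fold change of these 58 regions was 0.26, the largest in size of the 9 lists, and 0.03 in intact RPE. This shift was not tested. Of 9 regions in the stretches nearest to 3 of the 6 listed WNT and hedgehog genes, 0 were DARs by limma, edgeR or DESeq2, and 4 had an unadjusted limma p of at most 0.05. WNT11 is on that list, and its DAR described above lies outside the stretches. These shares were close to or below the 4.68% of the annotated stretches.

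Outside the lists, the largest named increases in the stretches were intronic or intergenic. The intronic CLC2DL3 region described above ranked first (log2 fold change 2.43), and some of the others are given here. A region nearest to PMPCB, a subunit gene of the mitochondrial processing peptidase, chr1:13116810-13117270, had 189 and 325 normalized counts at E5 against 59.3 and 69.4 at E4. One whose nearest listed start is that of gga-mir-1604, chr1:612780-613480, had 715 and 1216 at E5 against 222 and 269 at E4 (log2 fold change 1.93 ± 0.26, limma adjusted p = 0.0127). A region near GRM3, a metabotropic glutamate receptor gene, chr1:8420730-8421060, had 351 and 506 at E5 against 131 and 183 at E4. GRAMD4 was nearest to 2 increases, with 228 and 249 at E5 against 95.9 and 78.6 at E4 at the intronic one. Among DARs of the stretches with a gene name, the largest decrease outside the lists was near SCAF4, chr1:106046140-106046410. It had 5.51 and 9.12 at E5 against 31.1 and 42.0 at E4, values of few reads.

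The same stages of intact RPE share no library with the treated groups, although all 8 libraries entered one fit and one normalization. Of the DARs higher at E5 after treatment, 92.04% (2117 of 2300) also had a positive difference in intact RPE, and of those lower, 93.1% (1741 of 1871) a negative one. The sign was shared by 66.0% of all 89823 regions. Intact RPE had 3771 DARs between the stages (4.2%), and 637 regions were higher and 437 lower at E5 in both conditions. The treated RPE, in which these regions were chosen, had median log2 differences of 1.11 for those higher and −1.42 for those lower at E5, against 0.62 and −0.81 in intact RPE. A DAR in one condition and not in the other is not shown to differ between them. The test of that difference, the interaction of stage and treatment, called 2 regions (0.00223%), both in the run on chromosome 1, and 8264 had an unadjusted p of at most 0.05. Without either of the intact E4 libraries it called 0 regions.

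In 3 regions the stage difference was called in both conditions with opposite signs. At chr30:1535570-1536690 the values after treatment were 90.0 and 50.1 at E5 against 344 and 192 at E4, and in intact RPE they were 829 and 1082 at E5 against 300 and 280 at E4. At chr3:99740080-99741230 they were 125 and 178 at E5 against 312 and 295 at E4 after treatment, and 707 and 647 against 288 and 329 in intact RPE. At chr1:107744960-107745490 treated RPE had 9.19 and 6.08 at E5 against 29.7 and 26.7 at E4, and intact RPE had 213 and 317 against 53.7 and 99.5. In each of them intact E5 RPE was the highest of the 4 groups and treated E5 RPE the lowest, and the interaction did not pass the test (limma adjusted p = 0.128, 0.129 and 0.267).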

How the data were processed

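ATAC-seq had been performed on 8 libraries, 4 of which form the comparison. Per the methods, the authors trimmed reads with Cutadapt through Trim Galore, aligned them to GRCg6a with Bowtie2, removed duplicates with Picard, called open regions per library with HMMRATAC, merged regions within 10 bp with BEDTools, counted reads without strand with featureCounts and normalized with DESeq2. Their versions: not given in the sources used here. The deposited signal values are counts per region divided by a size factor. Dividing by the value of 1 read gave whole numbers for 100% of values (tolerance 1e-06), that is 25233633 to 72884966 reads per library, and 1 row of no width was left out.

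Log2(normalized count + 1) was fitted with limma 3.58.1 in R 4.3.3 (group means, all 8 libraries, trended eBayes), with Benjamini-Hochberg adjustment over 89823 regions and a threshold of 0.05. Fold changes of weak regions are understated by the pseudocount. edgeR 4.0.16 and DESeq2 1.42.0 were run on the recovered reads as alternatives, and edgeR called 4157 regions. In simulated data with 200 changed regions, the procedure recovered 30% of changes of 1 on the log2 scale and 91% of changes of 2. Of its calls there, 3.97% were false. The simulated counts were drawn independently, without the shifts of single libraries with signal level described above. These rates therefore need not hold for the DARs reported here. Alternatives covered scaling, pseudocount, filters, samples in the fit, a replicate block and each library left out. Correlations across regions are descriptions without tests.

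Regions named are, among autosomal DARs whose replicates do not overlap and whose higher stage averages 100 normalized counts or more, the 8 largest increases and decreases, the 3 largest in each direction at 2000 bp or wider and at 1000 normalized counts or more, the 2 largest in each direction per chromosome class, the 3 longest runs per direction (gaps of at most 10000 bp), the 10 largest in each direction with a gene name, and all DARs of 9 gene lists. Not every region chosen is printed, and the 3 regions of opposite sign were chosen after their values were seen. The comparison, lists and members were chosen with earlier results of these data known. Gene names and features are the authors' nearest-start annotation. No genome sequence of this build was used.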

Additional observations from a re-analysis of the deposited data

Results flagged for a closer look

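Both regions with a called interaction of stage and treatment lie next to each other in the run on chromosome 1. The stage difference at chr1:196930-199350, at a promoter of an unnamed gene, was 5.36 on the log2 scale in treated RPE and −0.28 in intact RPE, and the interaction was 5.64 (limma adjusted p = 0.00475). Both E5 6hPR + FGF2 libraries and all 4 intact libraries were above the 2 E4 6hPR + FGF2 libraries. At the intronic region chr1:199560-200610 the stage difference was 3.93 in treated RPE and −0.84 in intact RPE, with an interaction of 4.77 and the same adjusted p. In this second region E5 6hPR + FGF2 RPE had 584 and 1074 normalized counts and E4 6hPR + FGF2 RPE 50.4 and 51.9, against 1667 and 1343 in intact E5 RPE and 3041 and 2377 in intact E4 RPE. With limma, leaving out either intact E4 library ended both interaction calls (0 regions called), and without E5 6hPR + FGF2 replicate 2 a single region was called. At an unadjusted p of at most 0.05 there were 6323 regions without intact E4 replicate 1 and 10690 without intact E4 replicate 2.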

How the results depend on the processing

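The count of 4171 DARs kept within 1.5 times under other pseudocounts, a minimum mean of 50, equal totals, quantile normalization, regions of at most 2000 bp, robust moderation and edgeR (3648 to 4568). Alternatives added after the data were seen gave 4098 with cyclic loess normalization, 3333 with reads thinned to the shallowest library and 4133 with the row of no width. The count moved to 6610 without Z and W and to 8154 with DESeq2. With only the 4 treated libraries in the fit it was 0 with limma, where 17534 regions had an unadjusted p of at most 0.05, against 4157 by edgeR and 8154 by DESeq2 on all 8 libraries.

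Leaving out one library at a time gave 5 to 6650 DARs, the lowest without treated E5 replicate 2 and the highest without treated E5 replicate 1, with 23 when treated E4 replicate 1 was dropped, and 1680 and 1654 when intact E5 replicates 1 and 2 were. The lone library of a stage is then assumed to vary like the other groups. The interaction counted 0 to 3 regions when a library was left out (0 without either intact E4 library, 1 without treated E5 replicate 2), 1 among regions of at most 2000 bp and 288 with DESeq2. No cause was tested for these changes.

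Whether libraries pair by replicate number could not be settled, as only 2 numbers are shared. Deviations of same-numbered treated libraries correlated with r = 0.33 over all regions and 0.16 over autosomes. In both treated groups, replicate 1 was nearly without W signal and replicate 2 had it, so replicate number went with W signal there. With the replicate number as a block, 8136 DARs were called, 4044 of them higher at E5.

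For the fits that left out a library the sign was fixed in advance, because the libraries of the 2 stages do not overlap in any DAR. The same reason applies to the other pseudocounts. Filters on regions and the row of no width leave a region's fold change unchanged. So do the replicate block, robust moderation and the fit of the treated libraries alone. These reasons do not cover equal totals, quantile and cyclic loess normalization, thinned reads, edgeR and DESeq2. Under these and all other alternatives, none of 99 named regions changed sign. Of them 91 remained called with equal totals, 76 after quantile normalization, 62 without treated E4 replicate 2, 6 without treated E4 replicate 1 and 3 without treated E5 replicate 2. The depth of the E5 libraries limits regions below 50 normalized counts, where 1 read is worth 1.84 and 1.52.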
